A study of Mus musculus with 2 samples.

Results

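Among the 5349 genes annotated as processed pseudogenes in the tables, 74 (1.38%) had a TPM of 10 or more in both libraries. TPM is a gene's count of fragments divided by its effective length and scaled to a sum of 1000000 per library. Their gene type and symbol were taken from GENCODE M21 by gene identifier. The same level was reached by 27.9% of 21474 protein-coding genes and 14.3% of all 43346 genes. The 74 genes were chosen by these TPM values, so their levels are given as a description with no test. A count of 0 in both libraries was found for 4214 of the 5349 processed pseudogenes, and 223 had a TPM of 1 or more in both. The threshold of 10 was passed by 81 in replicate 1 and 81 in replicate 2, with 7 passing in each library alone. Just inside it were Rps23-ps1 at 10.4 and 11.9 in replicates 1 and 2, Gm9825 at 10.8 and 10.5 and Rpl38-ps2 at 15.2 and 10.8. Just outside were Gm8186 at 12.7 and 9.71, Gm10146 at 9.57 and 13.8 and Gm2423 at 10.45 and 9.09.

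Both libraries were made from poly(A)-selected RNA of primary megakaryocyte-erythroid progenitors (MEP), the blood progenitors of red cells and platelet-forming megakaryocytes. The mice are labelled C57BL/6J, female, adult and 5 weeks old, with no treatment or altered allele named, and a label describes the cells as CD34- and names CD16/32 beside the word lineages. There was 1 group of 2 biological replicates listed with the same donor, so conditions cannot be compared, and the spread between the libraries may be technical. Expected counts summed to 79539452 in replicate 1 and 65305315 in replicate 2. All 10 MEP markers were at a TPM of 1 or more in both libraries and summed to 1260 and 1867. The 5 granulocyte and monocyte markers were also all at 1 or more and summed to 30688 and 16865, and the 3 B cell markers summed to 60.3 and 19.2. None of 3 T cell markers reached 1 in both libraries, and of 3 platelet markers Pf4 was at 5.59 and 6.85, Ppbp at 0.08 and 0.12 and Gp6 at 0 in each. The 3 late red cell markers summed to 778 and 1592, of which Alas2 was at 0.35 and 0.42. In bulk RNA, fewer cells of a type and less RNA per cell cannot be told apart, and the part of other cell types in the levels below was not tested.

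A processed pseudogene is a DNA copy of a spliced mRNA, made by the reverse transcriptase of a retrotransposon and inserted elsewhere in the genome. It therefore lacks the introns and the promoter of its parent gene. Ribosomal protein and glycolytic genes, whose mRNAs are abundant in most cells, are known for leaving many such copies. A young copy can be so like its parent that a sequenced fragment fits both, and a program that shares fragments among genes then has to divide them between parent and copy.

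The symbols named a parent for 26 of the 74 pseudogenes (35.1%), against 444 of all 5349 processed pseudogenes (8.30%). The 26 are the symbols in which the parent's name precedes "-ps", such as Rps10-ps2 for Rps10, and they named 23 parent genes. Another 46 symbols (62.2%, against 89.4% of all processed pseudogenes) were of the form Gm with a number, which names no parent. The other two were Ndufb4c and Ftl2-ps. No gene in M21 carries the symbol Ftl2. Alignment of each pseudogene to the transcripts of protein-coding genes gave all 74 a closest coding gene, 62 genes in all, against 5093 of the 5349 processed pseudogenes of the tables. The closest coding gene was the named parent for 26 of 26. Over the transcripts of all other genes, coding or not, the first-ranked match was protein-coding for 69 of 74. Rank went by bit score, with ties by symbol. For Rpl27-ps3, Gm13577, Gm8226, Gm15710 and Gm10709 the first-ranked match was another processed pseudogene. The closest coding gene is called the parent below.

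The pseudogenes were close copies. Median identity to the parent over the aligned stretch was 99.7%, against 90.4% for all processed pseudogenes with an aligned coding gene. Identity was 98% or more for 73 of 74 and for 769 of 5349. Over its whole length, 25 of 74 (33.8%) were identical to the parent, against 91 of 5349 (1.70%). Counted base by base, 27 members had no substitution, 28 had 1 to 3 and 19 had 4 or more. The highest number was 17, in Gm17383, a copy of the alpha-tubulin gene Tuba1b. Inserted or deleted bases occurred in 8.

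The copies of Rpl23a, a protein of the large ribosomal subunit, show how little sequence separated some members from each other. Gm10335 (ENSMUSG00000071532.6, chromosome 10, 14523078 to 14523545 on GRCm38, plus strand) lies opposite to an intron of Adgrg6 and had 1 substitution over 468 bases, C248T. Gm10132 (ENSMUSG00000063556.5, chromosome 14, 77251847 to 77252314, minus strand) lies opposite to an intron of Enox1 and had 1 substitution over 468 bases, C246T. Rpl23a-ps3 (chromosome 14, 34170655 to 34171122, plus strand) overlaps no other gene and had A116T. In each token the parent's base comes first, then the position counted from 1 at the first base of the pseudogene, then the pseudogene's base. Bases 198 to 297 of each pseudogene and the matching bases 239 to 338 of the Rpl23a transcript are shown because they hold the positions that tell Gm10335 and Gm10132 apart, which are in capitals. Rpl23a-ps3 has the parent's bases in this window.
Gm10335: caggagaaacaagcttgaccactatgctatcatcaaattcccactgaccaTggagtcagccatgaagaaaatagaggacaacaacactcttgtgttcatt
Gm10132: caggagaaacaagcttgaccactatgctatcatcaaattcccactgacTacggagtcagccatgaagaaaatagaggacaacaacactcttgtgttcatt
Rpl23a-ps3: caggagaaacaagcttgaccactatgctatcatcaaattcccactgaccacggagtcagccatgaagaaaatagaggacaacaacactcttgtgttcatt
Rpl23a: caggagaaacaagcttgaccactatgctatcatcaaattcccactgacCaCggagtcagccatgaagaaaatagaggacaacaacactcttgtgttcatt

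Ndufb4c (ENSMUSG00000083380.1, chromosome 15, 73809507 to 73809896, minus strand) is a copy of Ndufb4, an accessory subunit of respiratory complex I, and lies in an intron of Mroh5 on the same strand. All of its 390 bases match the Ndufb4 transcript, and its reading frame is complete. Its first 150 bases, shown because a fragment from them cannot be assigned by sequence, equal bases 95 to 244 of the parent, so no base is in capitals.
Ndufb4c: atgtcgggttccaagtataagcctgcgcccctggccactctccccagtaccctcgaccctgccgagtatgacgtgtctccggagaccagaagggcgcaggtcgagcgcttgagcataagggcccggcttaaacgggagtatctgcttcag
Ndufb4: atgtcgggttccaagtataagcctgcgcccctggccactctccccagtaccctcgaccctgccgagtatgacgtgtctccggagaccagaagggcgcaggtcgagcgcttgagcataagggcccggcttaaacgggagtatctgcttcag

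The least similar member was Gm5805 (chromosome 15, 81972390 to 81972845, plus strand), a copy of the small subunit protein gene Rps14 with 96.9% identity and 14 substitutions over 456 bases. Bases 128 to 277 of Gm5805 and bases 221 to 370 of the Rps14 transcript hold 11 of them, in capitals, and are shown as the other end of the range of similarity.
Gm5805: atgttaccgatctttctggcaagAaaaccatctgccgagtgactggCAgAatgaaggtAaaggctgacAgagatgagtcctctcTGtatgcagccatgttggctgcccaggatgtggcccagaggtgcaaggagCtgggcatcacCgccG
Rps14: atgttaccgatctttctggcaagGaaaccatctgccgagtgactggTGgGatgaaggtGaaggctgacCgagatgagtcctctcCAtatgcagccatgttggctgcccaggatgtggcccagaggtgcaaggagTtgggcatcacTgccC

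Few stretches of the 74 pseudogenes occurred in no other gene. The measure was the share of a gene's words of 50 bases, taken at every position, that were absent from the M21 transcripts of all other genes, a measure of sequence alone that uses no read. Its median was 7.99% over the members and 94.5% over all processed pseudogenes. The members' median depended on the word length, at 3.87% with 30 bases, 19.7% with 100 and 27.5% with the mean fragment length of 143 bases, and was 3.02% over the 51 members whose length is the same in the tables and M21. Over all processed pseudogenes it was 100% with words of 100 bases. No unique word at all was found in 28 of 74 (37.8%) and in 244 of 5349 (4.56%). A share of 50% or more was found in 2 members, Rpl36-ps3 (69.5%) and Gm5805 (58.7%), against 4195 of the 5349. The next highest shares were those of Rps10-ps1 (49.8%), Rpl39-ps (49.0%) and Rpl36-ps12 (48.1%). Seen from the side of sequence, 28 of 244 processed pseudogenes with no unique word (11.5%) were members, 11 of 164 (6.71%) with up to 10%, 20 of 304 (6.58%) with 10% to 25%, 13 of 442 (2.94%) with 25% to 50%, and 2 of 4193 (0.0477%) above 50%. Of 3562 with an identity under 95%, 0 were members. The median TPM of the parents in these classes of unique words was 118, 123, 139, 161 and 132, in the same order.

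**Figure D1:**
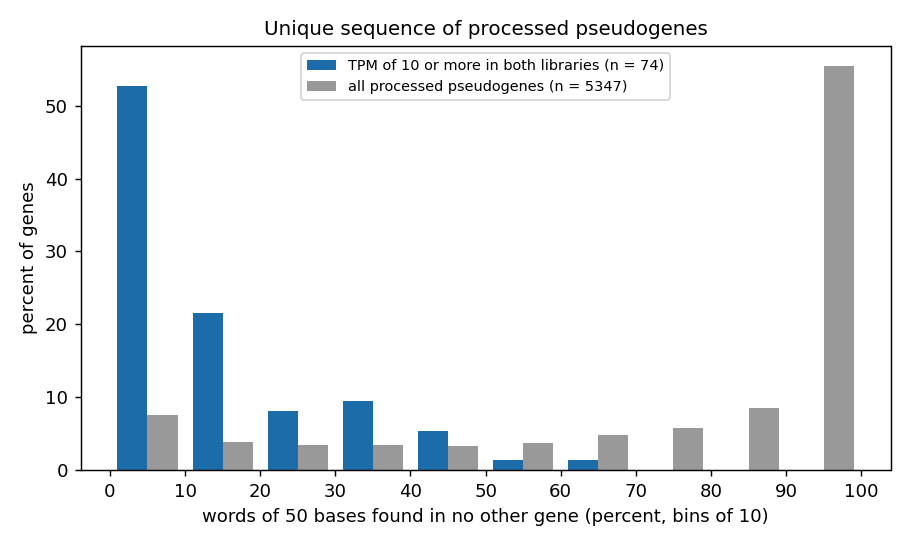
The share of 50-base words found in no other gene (x axis, percent, in bins of 10) for the 74 members and for the 5347 processed pseudogenes long enough to hold a word, as the percent of genes of each set in each bin (y axis). The members pile up in the lowest bin and all processed pseudogenes in the highest; the medians are 7.99% and 94.5%.

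The members kept more of a reading frame than processed pseudogenes in general. A stretch free of stop codons as long as 95% or more of the parent's coding sequence was found in 65 of 74 (87.8%), against 1024 of 5349 (19.1%). With a start codon and a stop codon both required inside the annotated span, the counts were 45 of 74 (60.8%) and 572 of 5349 (10.7%). The second count leaves out spans that end before the stop codon, such as Gm10335, whose 468 bases stand against a coding length of 471. All 74 had a single exon. They lay on 20 chromosomes, with up to 9 on one, chromosome 6. No other gene overlapped 45 of them (60.8%, against 68.0% of all 5349 processed pseudogenes). An intron of another gene held 8 on the same strand (10.8%, against 11.3%) and 9 on the opposite strand (12.2%, against 17.0%). An exon of another gene was overlapped by 6 on the same strand (8.11%, against 1.16%) and 6 on the opposite strand (8.11%, against 2.60%). Reads of a member and of a gene whose exon it overlaps on the same strand may be mixed whether or not counting used strand. No source used here says whether it did, so reads may also be mixed on the opposite strand. An example on the same strand is Gm10774, a copy of the RNA polymerase II subunit gene Polr2l that overlaps an exon of Usp50, at 29.7 and 20.5.

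Taken over the libraries, the 74 genes held 1.28% of all TPM in replicate 1 and 1.40% in replicate 2, which was 94.2% and 94.4% of the TPM of all processed pseudogenes. In expected counts the shares were 0.388% and 0.415%, since the members are short (151 to 1355 bases). The median TPM of a member was 47.7 in replicate 1 and 53.4 in replicate 2. A mean of 100 or more was reached by 20, 41 lay between 20 and 100, and 13 lay under 20. Gm10335 alone took 31.0% and 36.4% of the members' TPM.

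**Figure D2:**
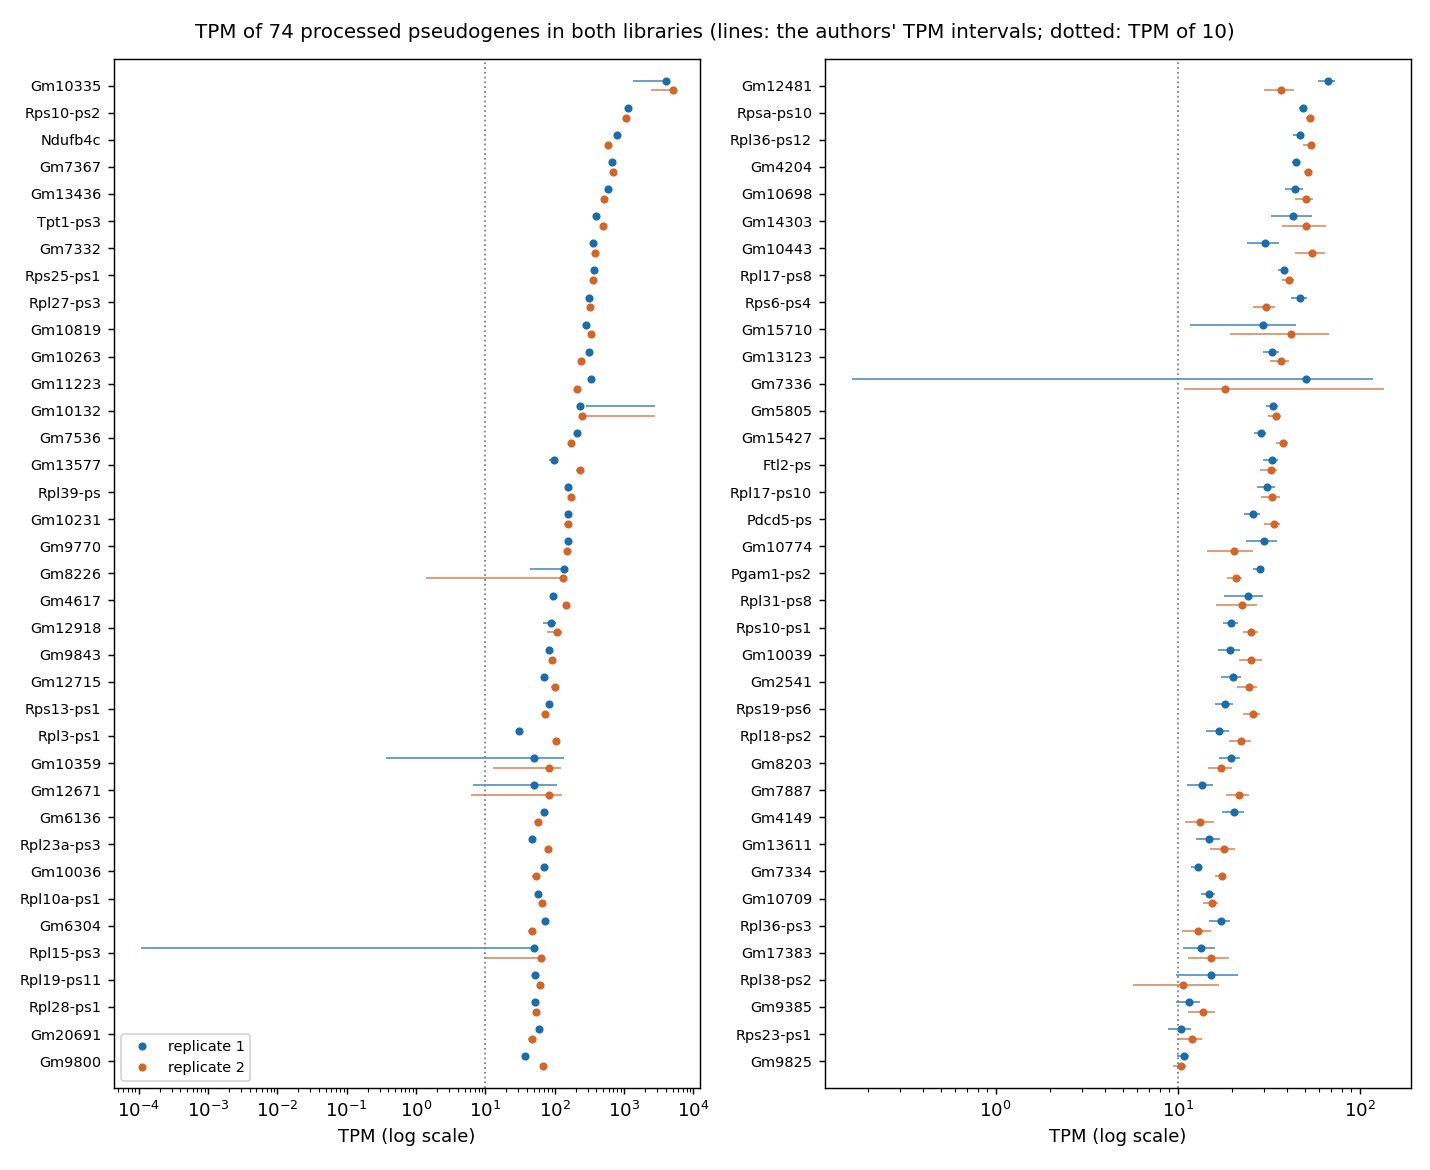
TPM (x axis, log scale) of each of the 74 members in replicate 1 and replicate 2, ordered by mean TPM, with the authors' TPM interval as a line and the threshold of 10 dotted; the left and right panels have different x ranges. Gm10335 stands highest at 3968 and 5095, and the lines of Gm8226, Gm10359, Gm12671, Gm7336 and Rpl15-ps3 reach far below their points.

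Ribosomal protein genes were the parents of 42 of the 74 (56.8%), and of 1359 of all 5349 processed pseudogenes (25.4%). Without the 3 copies of Rpl23a the count was 39 of 71 (54.9%). Large subunit genes were the parents of 29 and small subunit genes of 13. The 42 copies came from 33 parents, out of 84 protein-coding genes of these names at a TPM of 10 or more in both libraries. The symbol named the parent of 23 of the 42. Their mean TPM ran from 11.2 to 4532 with a median of 52.3.

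The highest ribosomal copy was Gm10335 at 3968 in replicate 1 and 5095 in replicate 2, above its parent Rpl23a at 1964 and 2194. Rps10-ps2, a copy of a small subunit protein gene, was at 1140 and 1063, below Rps10 at 3083 and 3062. By TPM both were above every other member in both libraries; by posterior mean Gm10132, at 1300 and 1275, was above Rps10-ps2, at 1128 and 1047. Gm13436, a copy of Rpl18, was at 587 and 520, far below its parent at 14100 and 13653. Rps25-ps1 was at 372 and 357, above Rps25 at 139 and 143. Both libraries gave the same order of copy and parent in each of these 4 pairs. Rpl27-ps3 was at 313 and 318 against 501 and 612 for Rpl27. Gm10263, a copy of the small subunit gene Rps28, was at 308 and 240 against 8445 and 7041. The other ribosomal copies were lower than these in mean TPM. Of the 42, 31 had less than 10% of the TPM of the parent, against 11 of the other 32 members. Because members were chosen by TPM, these counts depend on the levels of the parents.

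Genes of glycolysis were the parents of 4 members (5.41%), near their share of all processed pseudogenes (4.64%). Of these, 3 were copies of Gapdh, the glyceraldehyde-3-phosphate dehydrogenase gene, at 10476 and 9161. Gm10359 and Gm12671 were at 50.7 and 82.7 each, and Gm7336 at 50.7 and 18.3. The fourth was Pgam1-ps2, a copy of a phosphoglycerate mutase gene, at 28.2 and 20.8. The respiratory chain was the source of 3 members (4.05%), against 2.45% of all processed pseudogenes. Ndufb4c was at 800 and 588. Gm10231, a copy of Atp5g2, was at 155 and 155, and Gm10039, a copy of Atp5g1, was at 19.4 and 25.4; both parents encode subunit c of ATP synthase. These 3 members ran from among the highest levels to near the threshold.

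Among single copies of other genes, Gm7367 was at 671 and 700. Its parent Ubald2, at 1104 and 862, fell into the ubiquitin and proteasome class by the first letters of its symbol and is not a ubiquitin gene, so that class had no other member. Tpt1-ps3, a copy of the translationally controlled tumour protein gene, was at 395 and 502, against 3084 and 3276 for Tpt1. Both copies of Ptma (prothymosin alpha), Gm4617 and Gm9800, were at 95.5 and 148 and at 37.5 and 67.8. Gm13577, a partial copy of the chromatin protein gene Hmgb1, was at 97.9 and 230, and Gm8203, a copy of the histone variant gene H2afz, at 19.6 and 17.4. The actin copy Gm12715 was at 70.0 and 101 and the tubulin copy Gm17383 at 13.4 and 15.2. A further 16 members (21.6%, against 49.4% of all processed pseudogenes) had parents outside the named classes. They ran from Gm7332, a copy of the phosphatase inhibitor gene Ppp1r14b, at 353 and 377 to Gm9825 near the threshold. The classes went by symbol and missed some related genes. The lists for chaperones, splicing and hnRNP genes, and ferritin held 0 members, against 2.04%, 2.17% and 0.0748% of all processed pseudogenes. Among the 16, however, were Gm2541, a copy of the DnaJ co-chaperone gene Dnajb6, and Gm9825, a copy of the RNA-binding splicing gene Rnps1. Ftl2-ps, a ferritin light chain copy, was also among them.

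Within the chosen members, the levels of member and parent had little common order. Over the 74 pairs, Spearman's rho of the mean TPM of member and parent was 0.14, a description over genes that partly share parents and fragments. The members were chosen by their own TPM, so this value cannot give the order over processed pseudogenes in general. The parents were mostly abundant, with a median TPM of 563 over the 62, and 60 of them had a TPM of 10 or more in both libraries. For the 26 pairs by name the median log2 ratio of member to parent was -4.79. A TPM under 10% of the parent's was found for 42 of 74. With members chosen at a TPM of 10 or more, such a share can arise only with a far more abundant parent.

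In both libraries, 8 members were above their parent in TPM, and Gm6304 was above Mrpl27 in replicate 1 alone (71.5 against 67.1, and 47.3 against 72.3 in replicate 2). The widest gap was that of Ndufb4c, at 800 and 588 against 25.2 and 20.03 for Ndufb4, or 31.8-fold and 29.3-fold. The parent's expected counts were 1386 and 876 and those of the copy 13243 and 7633. Gm7334, identical to the antiproliferative gene Btg3 over the aligned stretch, was at 12.9 and 17.6 against 2.30 and 2.72. Ftl2-ps was at 33.0 and 32.4 against 7.04 and 9.32 for its closest coding gene, Ftl1-ps1, which M21 types as protein-coding (99.1% identity). The ferritin light chain gene Ftl1, next closest at 98.7%, was at 4816 and 3559, so the copy was above the closest coding gene and far below the next. Rps25-ps1 was 2.68-fold and 2.49-fold above Rps25, Gm9770 2.51-fold and 2.22-fold above the phosphatase gene Ctdsp2, and Gm10335 2.02-fold and 2.32-fold above Rpl23a. Gm10231 was 1.20-fold and 1.35-fold above Atp5g2, and Gm7332 1.19-fold and 1.14-fold above Ppp1r14b. In replicate 1 the TPM intervals of member and parent overlapped for Gm10335 (1357 to 3897 against 1917 to 1972). They also overlapped there for Gm10231 (138 to 166 against 117 to 142). The share of unique words in the M21 sequences of these 8 ran from 0% in Ndufb4c, Gm7334 and Gm10231 to 30.4% in Rps25-ps1. Gm7334 has 756 bases in M21 and a deposited length of 1356. Its unique words and its identity to Btg3 therefore cover only part of what was quantified.

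**Figure D3:**
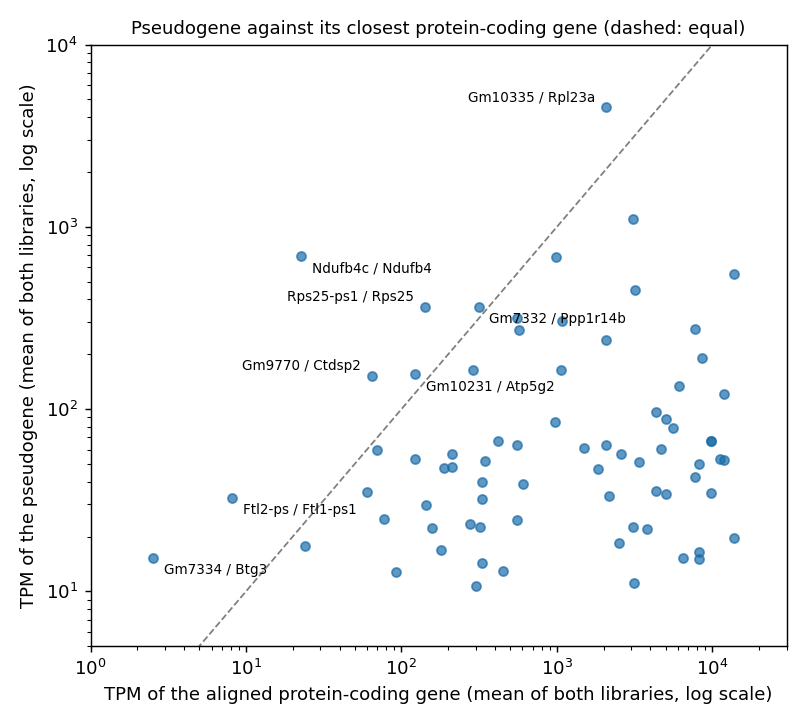
Mean TPM of each of the 74 members (y axis, log scale) against that of its closest protein-coding gene (x axis, log scale), with equality dashed. The 8 named points lie above the line, with Ndufb4c farthest at 694 against 22.6, and most other points lie far below it.

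The deposited TPM intervals were wider for the members than for protein-coding genes at the same level. The authors' interval describes how precisely 1 library's fragments fix the value. Its level is not stated in the headers. The relative width is the upper minus the lower bound, divided by the posterior mean TPM and averaged over the libraries. Its median was 0.195 over the 74 members and 0.0726 over 5984 protein-coding genes at a TPM of 10 or more in both libraries. In replicate 1 the medians were 0.185 and 0.0689 and in replicate 2 they were 0.200 and 0.0761. A width of at most 0.1 was found for 17 of 74 members and 4145 of the coding genes, and a width above 1, where the interval is broader than the value itself, for 7 of 74 (9.46%) and 4 of 5984 (0.0668%).

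Part of the gap went with the number of fragments, since short genes collect few. The median expected count was 1404 in replicate 1 and 1097 in replicate 2 for members, and 4683 and 3912 for coding genes. In classes of expected count the medians lay closer. Between 300 and 1000 counts they were 0.201 for 21 members and 0.181 for 398 coding genes, and between 1000 and 3000 counts 0.147 for 22 members and 0.109 for 1779. Divided by the median coding width of its own class, the width of a member had a median of 1.23 over 71 members. Under 100 counts there was no coding gene to divide by, which left out Gm14303, Gm10774 and Rpl38-ps2, all without a unique word and with widths of 0.480 to 0.877. The ratio had a median of 1.30 for the members with no unique word, with 9 of 25 above 2. For those with up to 10% unique words it was 1.33, with 3 of 11 above 2. Between 10% and 25% it was 1.20, with 3 of 20 above 2. For those with more than 25% it was 1.05, with 0 of 15 above 2. Spearman's rho over the members was -0.53 between width and expected count and -0.28 between width and unique words. These are descriptions over genes of the same libraries, and the part of each in the widths was not tested.

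The narrowest intervals belonged to Rps10-ps2 (1110 to 1147 in replicate 1 and 1026 to 1067 in replicate 2, relative width 0.0358), Ndufb4c (777 to 805 and 566 to 592, 0.0399), Gm13436 (0.0428) and Gm7367 (0.0476). Ndufb4c had no unique word, and 3 of the 28 members without one had a width of 0.1 or less. Absence of unique words within the annotated span was therefore not always accompanied by a wide interval. The widest was that of Gm7336, with a relative width of 2.80. Its TPM was 50.7 with an interval from 0.162 to 119 in replicate 1, and 18.3 with 10.8 to 136 in replicate 2. The other widths above 1 were those of Gm12671 (2.00), Gm10359 (1.99), Gm10132 (1.97), Gm8226 (1.24), Rpl15-ps3 (1.19) and Gm15710 (1.10). The parents of these 7 were Gapdh, Rpl23a, Rpl7a, Rpl15 and Rpl13, genes of glycolysis and of the large ribosomal subunit. For 9 of 74 members the lower bound was under the threshold of 10 in at least 1 library, among them the 3 Gapdh copies, Gm8226 and Rpl15-ps3. The lower bound of Rpl15-ps3 in replicate 1 was 0.000107, against a TPM of 50.4.

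**Figure D4:**
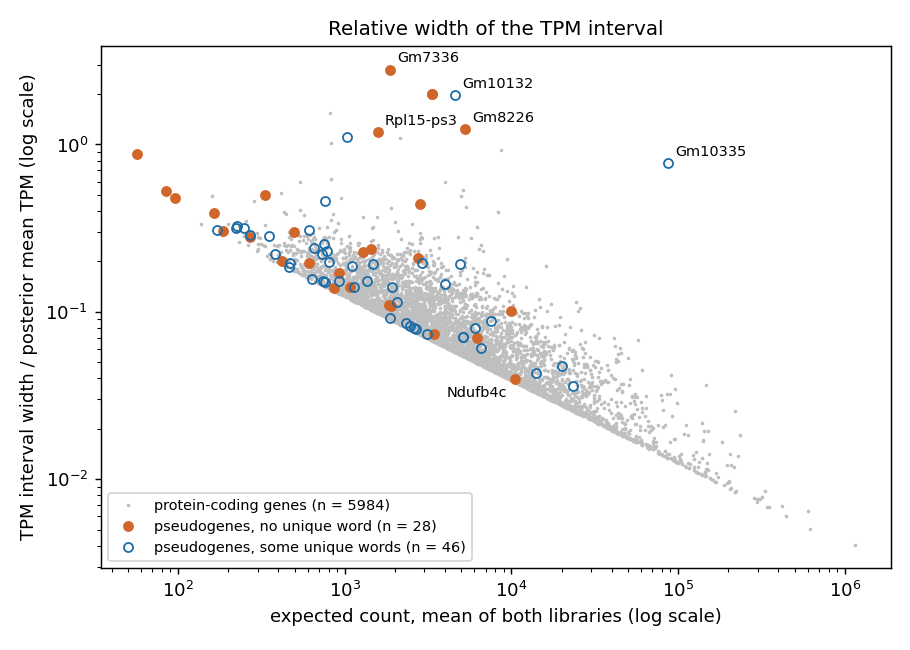
Relative width of the TPM interval (y axis, log scale) against the mean expected count (x axis, log scale) for 5984 protein-coding genes (grey) and the members with no unique word (28, filled) or some (46, open). Most members lie within the grey cloud; Gm7336 (2.80), Gm10132, Gm8226 and Rpl15-ps3 lie above most of it, as does Gm10335 (0.776) at far higher counts.

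For the Gapdh and Rpl23a families the sums differed less between estimates than some single members did. Gm10359 and Gm12671 are identical over all of their 1002 bases, and their expected counts were both 2894 in replicate 1 and both 3751 in replicate 2. Gm7336 also had 2894 in replicate 1, and its deposited length is likewise 1002 bases, against 1232 in M21. The 3 Gapdh copies summed to 152 and 184 by TPM and to 148 and 178 by posterior mean, another estimate deposited for each gene. For Gm10335 and Gm10132, which differ from Rpl23a by 1 base each, the estimates parted. Gm10335 had a TPM of 3968 and 5095 and a posterior mean of 2849 and 3989, and its TPM lay above its own interval (1357 to 3897 and 2407 to 5040) in both libraries. Gm10132 had a TPM of 228 and 250 and a posterior mean of 1300 and 1275. Rpl23a with its 3 copies summed to 6208 and 7619 by TPM and 6139 and 7507 by posterior mean, a difference of -1.10% and -1.47%. By comparison, the summed posterior mean of the Rps10 copies was 0.990 and 0.985 of their summed TPM. A difference of this size was thus not particular to Rpl23a. The level of Gm10335, the highest member, thus moved with the estimate used, and by either estimate it was above Rpl23a, whose posterior mean was 1944 and 2164. In replicate 1 the interval of Gm10335 held that of Rpl23a (1917 to 1972). A TPM outside its own interval was found for 4 of 74 members (5.41%) in replicate 1 and 2 of the same members (2.70%) in replicate 2, against 4.9% and 7.31% of all genes at this level. The other two were Gm8226, a copy of Rpl7a with substitutions A186G and A747C, at 134 in each library against posterior means of 94.3 and 83.7, and Rpl15-ps3. Summed over parent and copy, the posterior mean differed from the TPM by -1.72% and -2.22% for Rpl7a and Gm8226, and by -5.27% and -5.74% for Rpl15 and Rpl15-ps3. The first-ranked match of Gm8226 over all genes, Rpl7a-ps11, is left out of the sum for Rpl7a.

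Between the libraries, 2 of 74 members (2.7%) differed by more than 2-fold with TPM intervals that did not overlap, against 0.922% of the 6185 genes at this level. With 1 library against 1 there is no test. Both were higher in replicate 2, where the share of all genes was 0.226%, and 0 members were higher in replicate 1, where it was 0.695%. Folds are on TMM-scaled CPM, counts scaled to a common library size. Rpl3-ps1 (chromosome X, 13202571 to 13203780, plus strand), a copy of the large subunit gene Rpl3, was at 30.9 and 103, or 3.11-fold higher in replicate 2, while Rpl3 was at 401 and 433. Gm13577 was 2.06-fold higher in replicate 2, while Hmgb1 was at 1037 and 1099. Rpl3-ps1 had 4.31% unique words and 2 substitutions over 1210 bases, C58A and T787C. Bases 2 to 101 of the copy and 81 to 180 of the Rpl3 transcript are shown because they hold the first of these, in capitals.
Rpl3-ps1: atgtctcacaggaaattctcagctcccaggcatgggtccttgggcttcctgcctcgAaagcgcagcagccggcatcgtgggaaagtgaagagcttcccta
Rpl3: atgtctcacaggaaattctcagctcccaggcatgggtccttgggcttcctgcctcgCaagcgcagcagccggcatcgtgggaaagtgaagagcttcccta

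Gm7336 was 2.98-fold higher in replicate 1 with overlapping intervals. Over all 74 the median log2 difference, replicate 1 minus replicate 2, was -0.02, with 36 higher in replicate 1 and 38 in replicate 2, and over all genes at this level it was 0.03. The median size of the difference was 0.24 for members, 0.18 for all genes and 0.13 for the 62 parents. These sizes were not matched for expected count, with medians of 1404 and 1097 for members and 4683 and 3912 for coding genes. The part of count in them was not tested. Intervals were separate between libraries for 47.3% of members and 68.3% of all genes at this level. A copy and its parent did not always differ in the same direction. Gm11223, a copy of Stmn1, the gene of the microtubule regulator stathmin, was at 333 in replicate 1 and 211 in replicate 2, while Stmn1 was at 429 and 709. Other members farthest apart were Gm12481 (67.1 and 37.2), Gm4149 (20.4 and 13.35) and Rps6-ps4 (46.8 and 30.7) toward replicate 1, and Gm9800, Gm10443 (30.1 and 55.0) and Rpl23a-ps3 (46.7 and 79.9) toward replicate 2. The granulocyte and monocyte markers summed higher in replicate 1 and the MEP markers in replicate 2, and their part in these differences was not tested.

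**Figure D5:**
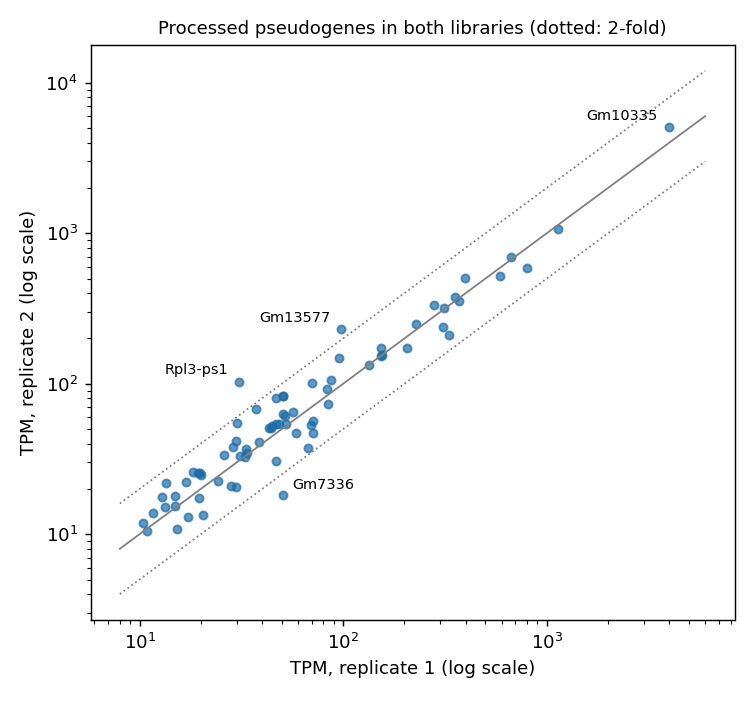
TPM of the 74 members in replicate 2 (y axis, log scale) against replicate 1 (x axis, log scale), with equality as a full line and 2-fold differences dotted. Rpl3-ps1 and Gm13577 lie above the upper dotted line and Gm7336 below the lower one.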

How the data were processed

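Poly(A) RNA-seq libraries of MEP cells were analysed, 1 group with replicates 1 and 2. The assembly was mm10 per the labels, and the annotation GENCODE M4 per a deposited text file. The labels and files used here name no aligner, quantification program or strand setting. The authors' gene tables hold, per the file headers, the expected count of each gene, in which fragments that fit several genes are shared, a TPM scaled to 1000000 per library, a FPKM value (not used here), and interval bounds, lengths and posterior SDs, held as scores; only the TPM bounds and lengths of these were used.

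Of 43346 gene identifiers 42462 matched M21, which supplied symbols, types, coordinates (GRCm38) and transcript sequences; 26345 rows that name no gene held 1 count in replicate 1 and 0 in replicate 2 and were left out. The deposited lengths equal those of M21 for 51 of 74 members. Parents came from BLAST 2.17.0 (plus strand, E-value at most 1e-10, word size 16, overlapping genes on the same strand left out, highest bit score). Ratios used a pseudocount of 0.01 TPM. Expected counts were rounded to whole numbers and scaled with edgeR 4.0.16 (TMM factors 0.98 and 1.02, prior count 2, R 4.3.3), with DESeq2 1.42.0 size factors as an alternative. Python 3.11.15, numpy 2.4.6, pandas 2.3.3 and scipy 1.17.1 did the rest. The share of unique words and the scaled difference between libraries were tested on simulated data, and the other steps were not.

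The members and lists were chosen with earlier results of these data known. Named genes followed a rule: the highest in TPM, those nearest the threshold, the widest and narrowest intervals, the farthest apart between libraries, the extremes of unique words, the highest ratios to a parent, and the 2 highest of each class of parent. Gm8226, Rpl15-ps3, Gm15710, Gm6304, Gm10774, Gm10039, Pgam1-ps2, Gm2541 and Gm14303 were named after their values were seen. Alternatives changed thresholds, units, scaling, word length and the definition of the parent, or left out 1 library.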

Additional observations from a re-analysis of the deposited data

How the results depend on the processing

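At a TPM threshold of 5 or 20 the number of members was 107 or 57, and by the posterior mean or the lower bound of the interval it was 82 or 65; it was 88 with transcribed processed pseudogenes included and 71 with 100 or more expected counts. Leaving out 1 library gave 81 members either way. The median share of unique words was 3.87% with words of 30 bases, 19.7% with 100 bases and 7.34% with both strands searched. Alternatives added after seeing the data gave 7.59% against the transcripts listed in the deposited tables alone, 27.5% with words of the mean fragment length of 143 bases and 3.02% over the 51 members whose length is the same in the tables and M21. Alignment in place of names raised the members with a parent from 26 to 74. The median log2 ratio to the parent by name, -4.79, was -4.73 with a pseudocount of 1 TPM, -5.42 in expected counts not corrected for length and -3.92 with parents by alignment; leaving out 1 library gave -4.68 to -4.63. The median log2 difference between libraries, -0.019, was -0.14 on log2 TPM, -0.021 with DESeq2 size factors and -0.032 among members with 100 or more expected counts, so its sign did not change and its size depended on the scale. The number of members apart was 2 under each other scaling and prior count, and 3 without the condition on intervals. The median relative width ran from 0.185 to 0.200 for members and from 0.0689 to 0.0761 for protein-coding genes. No paired analysis was possible because there is 1 group. Depth was lowest for 3 short members, Gm14303, Gm10774 and Rpl38-ps2, with an expected count under 100 in at least 1 library.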
